A study of Mus musculus with 4 samples.

Results

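Glycolysis splits glucose into pyruvate in a chain of cytosolic enzymes, and lactate dehydrogenase then interconverts pyruvate and lactate. In the kidney the proximal tubule is known for oxidising fatty acids and glutamine in mitochondria and for making glucose, whereas the distal segments and leukocytes use glucose as a fuel. The genes described here are 10 members of this pathway: the hexokinases Hk1 and Hk2, the phosphofructokinases Pfkp and Pfkl, the aldolase Aldoa, the phosphoglycerate kinase Pgk1, the enolase Eno1, the pyruvate kinase Pkm, and the lactate dehydrogenase subunits Ldha and Ldhb. They were chosen by symbol and take up 11 of the 31053 mouse gene identifiers, because Aldoa is listed under 2 identifiers.

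The data are single-cell RNA-seq libraries of whole kidney from male C57BL/6 mice aged 19 months. BPTES, an inhibitor of the mitochondrial glutaminase that turns glutamine into glutamate, was given for 1 month to one group, and the vehicle DMSO to the other, with 2 libraries in each group. The dose, and whether a library came from 1 animal or from pooled animals, are not given in the sources used here, so the p-values below measure only the spread between these libraries. Kidneys were dissociated with liberase and sorted, and 20000 CD45- cells were mixed with 9000 CD45+ cells for each library, so the balance of epithelium and leukocytes was set by the mixing. Each library held 249881074 to 297947661 unique molecular identifiers (UMIs), the molecules counted after removal of PCR copies.

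After filters, 46738 of 76278 barcodes were kept, and 25273 barcodes (33.1%) had been removed for more than 50% mitochondrial UMIs. Each pair of libraries shared 90 to 114 barcodes, at most 0.618% of the smaller library. Of 52 clusters, 42 were named from marker genes in 20 classes, and 10 clusters with 4296 cells (9.19%) stayed unnamed. Classes with at least 20 cells in every library (18 classes) were used for levels, and classes with at least 50 (12 classes) for the comparison of BPTES with DMSO. The connecting tubule class is a single cluster of shallow cells, with median depths of 1496 to 1581.5 UMIs per cell in the 4 libraries, in which markers of the distal convoluted tubule came close to its own. A cluster led by the injury marker Havcr1 could not be named by the marker rule and is not part of the proximal tubule below. It held 22 and 23 cells in the BPTES libraries against 164 and 136 in the DMSO libraries. Within a class, fewer cells of a subtype and less RNA per cell cannot be told apart in the summed counts.

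The members lie on 7 chromosomes of the mouse genome (GRCm38, GENCODE M21), and all are annotated as protein-coding. The hexokinases, which trap glucose in the cell by phosphorylation, are Hk1 (ENSMUSG00000037012, chr10:62268855-62379908, minus strand) and Hk2 (ENSMUSG00000000628, chr6:82725025-82774454, minus strand). The phosphofructokinases, which carry out the committed step, are Pfkp (ENSMUSG00000021196, chr13:6579768-6648777, minus strand) and Pfkl (ENSMUSG00000020277, chr10:77986947-78010083, minus strand). Aldoa (ENSMUSG00000030695, chr7:126795234-126800751, minus strand) splits the hexose, and its second identifier (ENSMUSG00000114515) held only 68 UMIs against 334378 for the first. Pgk1 (ENSMUSG00000062070, chrX:106187100-106203699, plus strand) makes the first ATP of the pathway. Eno1 (ENSMUSG00000063524, chr4:150236721-150248879, plus strand) forms phosphoenolpyruvate. Its count of 115006 UMIs is uncertain to the extent that reads could be shared with the near-identical copy Eno1b, which held 2885. Pkm (ENSMUSG00000032294, chr9:59656368-59679375, plus strand) makes pyruvate, and the counts do not separate its isoforms. Ldha (ENSMUSG00000063229, chr7:46841475-46855627, plus strand) and Ldhb (ENSMUSG00000030246, chr6:142490249-142507957, minus strand) encode the subunits of lactate dehydrogenase.

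The 10 members differed widely in how far they separated the cell classes. Levels are counts of a gene per 1000000 UMIs summed over a class in a library (CPM), given as the mean ± SD of 4 libraries or as the range over them, and classes are compared as a description, because the clusters were built from the same cells. The proximal tubule had the lowest level of 18 classes for Hk1, Pfkp and Pkm, while Ldha, Ldhb, Aldoa and Pgk1 were abundant there. Summed over the members, the class levels ran from 455 ± 98.6 in plasma cells to 5575 ± 614 in the connecting tubule, and the proximal tubule stood at 2329 ± 286.

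Among the hexokinases, Hk1 was at 0.370 to 0.448 CPM in the proximal tubule and at 179 to 243 in the thick ascending limb, the class with the highest mean. The ratio of those means was 507. Intercalated cells (185), principal cells (181), the distal convoluted tubule (164), thin limb (151) and connecting tubule (141) formed one group of overlapping neighbours with the thick ascending limb, and all leukocytes lay below that group. Hk2 was ordered differently. Its highest means were in neutrophils (61.7), dendritic cells (59.2), monocytes (52.8) and macrophages (47.6), which overlapped as neighbours. It was at 0.150 in the proximal tubule and 0.279 in endothelium. No Hk2 UMI was counted in the connecting tubule, which allows a level of up to 0.821 CPM, from 3 counts over the class. In the neutrophils Hk2 ranged from 30.8 to 139 between libraries, the latter in DMSO library 2.

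**Figure D1:**
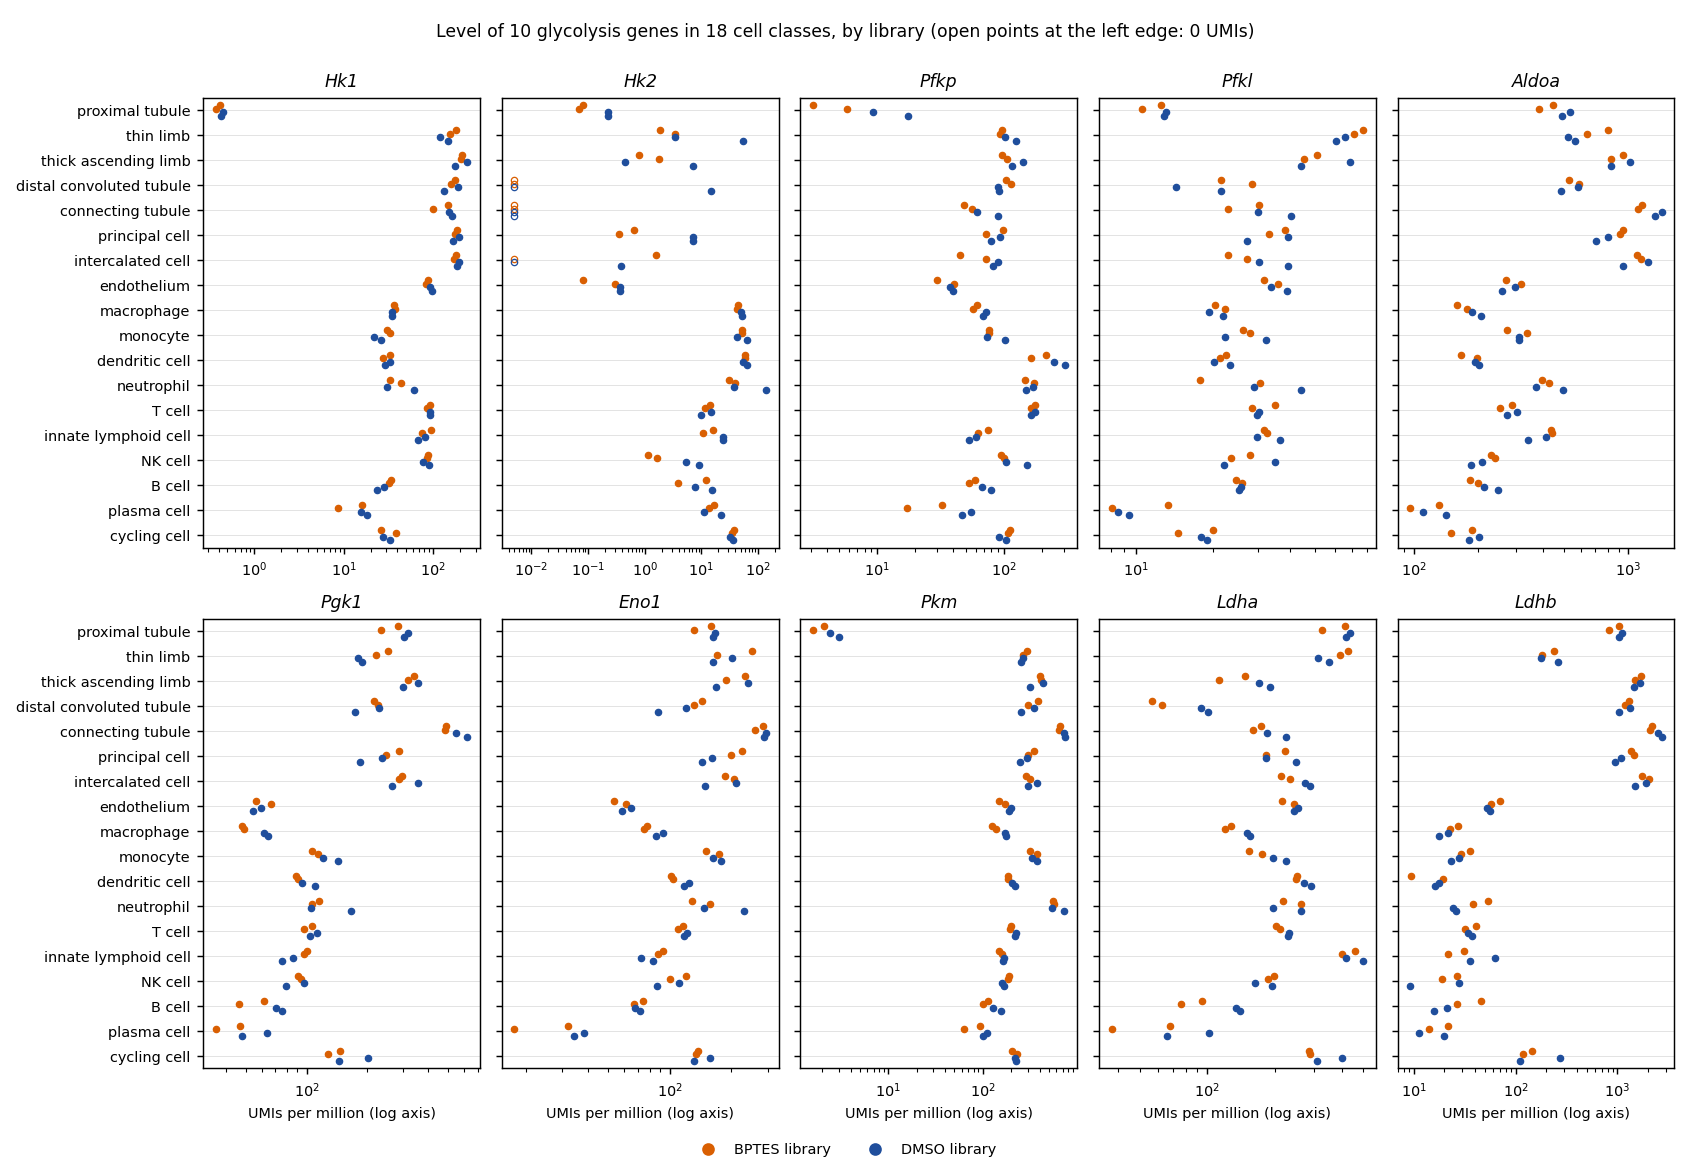
CPM (log axis) of each of the 10 members in 18 cell classes, 1 point per library (orange BPTES, blue DMSO), with libraries at 0 UMIs drawn open at the left edge. Hk1 and Pkm in the proximal tubule lie apart from all other classes, Hk2 is high in myeloid cells, and Ldhb is high in the tubule other than the thin limb.

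The phosphofructokinases split in another way. Pfkp was highest in dendritic cells (166 to 303 CPM), followed by T cells (163 to 178) and neutrophils, and these neighbours overlapped. It was lowest in the proximal tubule, where it ranged from 3.13 to 17.7. Endothelium, the next class up, ranged from 29.8 to 40.3 and did not overlap with it. Pfkl moved over a narrower range, from 9.83 in plasma cells and 12.3 in the proximal tubule to 68.8 in the thin limb, a ratio of 7.01 between highest and lowest means.

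Aldoa, Pgk1, Eno1 and Pkm had their highest class means in the connecting tubule, whose cells were shallow. In the thick ascending limb the shallow cluster also stood above the deep one, at 1334 against 628 for Aldoa, 489.7 against 224 for Pgk1, 313 against 135 for Eno1 and 579 against 262 for Pkm. The part of depth in the order of classes was not tested. Aldoa reached 1256 ± 150.0 there and was lowest in plasma cells at 120. Pgk1 was at 537 and Eno1 at 283 in the connecting tubule, and both were lowest in plasma cells, at 48.5 and 30.5. For these 3 genes the proximal tubule lay in the upper or middle part of the order, with means of 463, 284 and 155. Pkm did not follow them: it was at 689 in the connecting tubule, 597 in neutrophils, 390 in the thick ascending limb, and 1.60 to 3.02 in the proximal tubule. The next lowest class for Pkm, plasma cells, ranged from 63.2 to 112. Pklr, which encodes the pyruvate kinase of liver and red cells, was at 14.2 to 18.1 in the proximal tubule and at 1.36 or less in every library of the thick ascending limb.

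Ldha and Ldhb differed in their pattern. Ldha, whose subunit favours lactate production, varied least of the members between classes, by a ratio of 6.47, and all 17 pairs of neighbours in its order overlapped. Its highest means were in innate lymphoid cells (443) and the proximal tubule (397), and its lowest in plasma cells (68.5) and the distal convoluted tubule (78.5). Ldhb, whose subunit favours lactate use, ran from 15.6 in dendritic cells to 2389 in the connecting tubule. The low end is at the level of background: in dendritic cells Ldhb was at 0.899 to 2.31% of its proximal tubule level, and the 11 proximal tubule markers had medians of 0.955 to 1.83% of theirs. Intercalated cells (1806), the thick ascending limb (1580), the distal convoluted tubule (1222), principal cells (1216) and the proximal tubule (1005) followed, and a gap without overlap separated the proximal tubule from the thin limb (214). With mitochondrial genes left out of the denominator, 47 of the 198 ranks over identifiers and classes changed.

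The log2 ratio of Ldha to Ldhb UMIs sets the classes in one line. Comparing this ratio between classes does not depend on gene length, but the ratio itself is one of molecules counted, not of subunits. It was 4.14 in dendritic cells, 3.65 in innate lymphoid cells, 2.64 in macrophages, 2.03 in endothelium and 0.80 in the thin limb, and in dendritic cells it rests on the Ldhb level at background given above. It was -1.34 in the proximal tubule, where the 4 libraries ranged only from -1.35 to -1.33. It was lower still in 5 other tubule classes, at -2.52 in principal cells, -2.84 in intercalated cells, -3.37 in the thick ascending limb, -3.69 in the connecting tubule and -4.00 in the distal convoluted tubule. Ldha thus made up 28.2 to 28.4% of the UMIs of both genes in the proximal tubule, 92.8 to 96.4% in dendritic cells, with the same limit, and 4.14 to 8.84% in the distal convoluted tubule. Ldhb was also low in macrophages, at 1.68 to 2.76% of its proximal tubule level. The 11 proximal tubule markers had medians of 0.967 to 1.98% of theirs there. In innate lymphoid cells of DMSO library 1, Ldhb was at 5.76% and the markers at 5.34%. In the other libraries of that class they were at 2.62 to 3.37% and 1.35 to 1.38%. The part of proximal tubule RNA in these ratios was not tested.

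**Figure D2:**
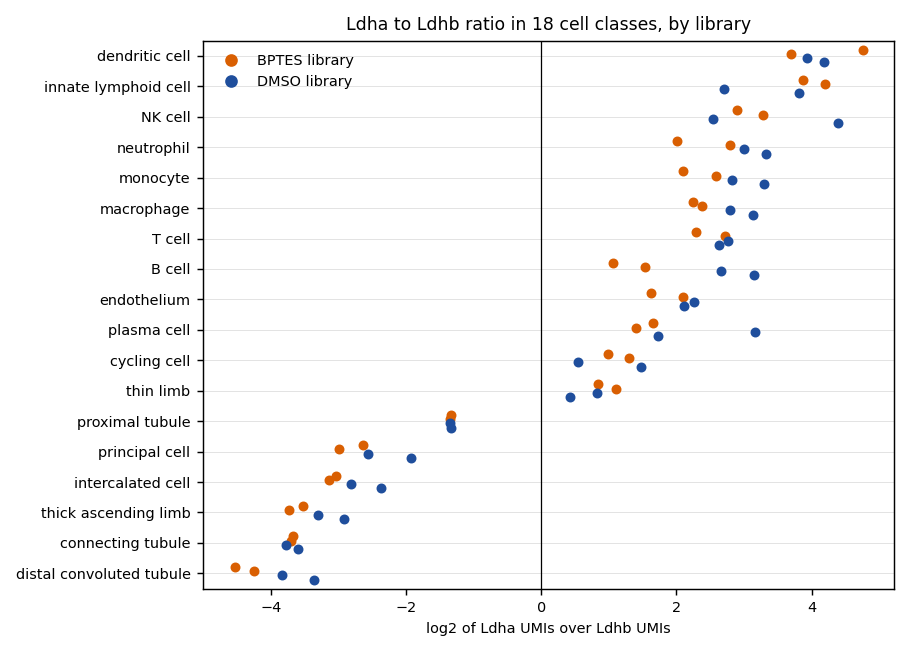
The log2 ratio of Ldha to Ldhb UMIs (horizontal axis) in 18 cell classes, 1 point per library (orange BPTES, blue DMSO). Leukocytes, endothelium, cycling cells and the thin limb lie above 0, the other tubule classes below, and the 4 proximal tubule libraries coincide at -1.35 to -1.33.

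Within the proximal tubule, that ratio was -0.98 to -1.06 in the S3 subclass and -1.35 to -1.40 in the S1-S2 subclass. The log2 ratio of Hk2 to Hk1 was positive in dendritic cells (0.94), monocytes (0.91) and macrophages (0.39) and negative in T cells (-2.87), principal cells and endothelium. In principal cells it was -8.15 and -8.93 under BPTES and -4.76 and -4.54 under DMSO, and in endothelium it ranged from -10.11 to -7.98, with as few as 1 Hk2 UMI in a library of either class. The macrophage ratio covers unlike clusters. In the largest macrophage cluster Hk2 was at 56.4 CPM and Hk1 at 27.8. In a cluster that also carried T cell markers the order was opposite, at 34.3 and 48.7. The latter cluster held 33.5 to 45.3% of macrophage UMIs. The log2 ratio of Pfkp to Pfkl was 3.38 in dendritic cells and 0.06 in endothelium. In the proximal tubule its sign differed between libraries, at -2.01 and -0.88 for the BPTES libraries and at -0.50 and 0.45 for the DMSO libraries.

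The genes outside the members whose pattern over the 18 classes was most like 3 of the members were taken by Pearson's r over class means, among 11830 genes, as a description over classes that share libraries. For Ldhb these were Gstt1 (r = 0.98), Gm44386 (0.97) and Atp6v0a4 (0.97), the last a subunit of the proton pump of intercalated cells. The members nearest to Ldhb were Pgk1 (0.91) and Aldoa (0.86), and Ldha was at 0.09. For Ldha the nearest genes were Fam104a (0.84), Med21 (0.84) and Txnl1 (0.81). For Hk2 they were Rnf19b (0.93), Il6ra (0.93), which encodes the receptor of interleukin 6, and Lpcat2 (0.92), and Ldhb was at -0.75.

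BPTES was then compared with DMSO in each class by edgeR's quasi-likelihood test on UMIs summed per library, with Benjamini-Hochberg adjustment over all genes of the class and a threshold of 0.05. Values for this comparison are CPM normalised within the class, given for BPTES libraries 1 and 2 and then DMSO libraries 1 and 2. Among 12 classes and the subclasses S1-S2 and S3 of the proximal tubule, members passed the threshold in macrophages (3 of 10, all lower) and in the S1-S2 subclass (1 of 10, lower). In the other classes 0 members passed with edgeR.

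In macrophages, the kidney's resident phagocytes, Pgk1, Ldha and Pkm fell under BPTES. The 6 macrophage markers were all detected in each library. They summed to 9990 and 9943 CPM under BPTES and to 11668 and 13956 under DMSO, so the markers of the class were lower without overlap beside these members, and their part in the result was not tested. Pgk1 was at 47.2 and 50.1 normalised CPM under BPTES and at 62.0 and 64.6 under DMSO. Its log2 fold change was -0.38 (SE 0.08, edgeR adjusted p = 0.0398, n = 2 and 2). Ldha was at 124 and 122 under BPTES and at 150.3 and 155 under DMSO, with a log2 fold change of -0.31 (SE 0.07, edgeR adjusted p = 0.0493). Pkm was at 123 and 140.1 under BPTES and at 174 and 176 under DMSO, with a log2 fold change of -0.41 (SE 0.09, edgeR adjusted p = 0.0405). In all 3 genes both BPTES libraries lay below both DMSO libraries. Of all 13963 genes tested in macrophages 5.38% passed, 3.69% as lower.

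The other macrophage members did not pass. Eno1 (75.4, 76.7, 92.7 and 86.1), Hk2 (42.9, 43.4, 50.8 and 53.5), Pfkp (60.2, 58.3, 73.3 and 68.6) and Aldoa (155, 179, 187 and 206) were also lower without overlap. Ldhb (26.3, 23.3, 21.7 and 17.7) and Hk1 were higher without overlap, and Pfkl overlapped. So 7 of 10 members were lower without overlap, where 30.3% of all genes were, and 2 were higher, where 27.3% were. The members' median log2 fold change was -0.25, against -0.01 over all genes tested.

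**Figure D3:**
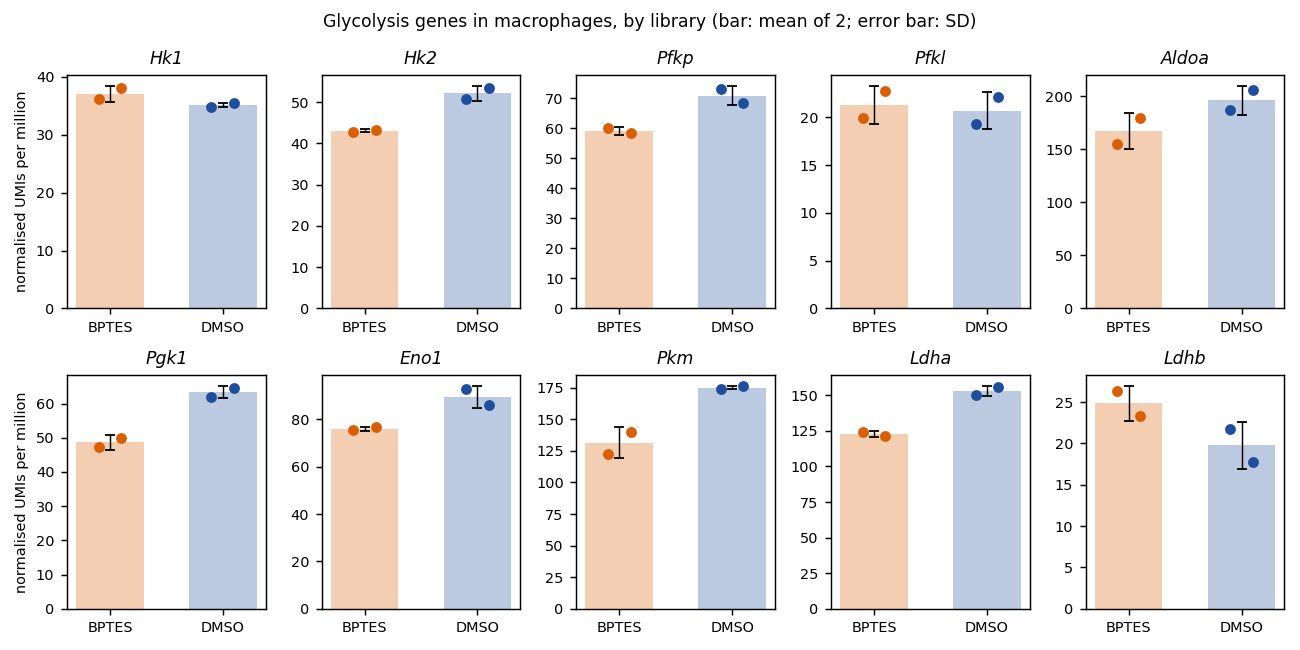
Normalised CPM of the 10 members in macrophages, 1 point per library, with the mean (bar from 0) and SD of the 2 libraries in each group. Pgk1, Ldha and Pkm passed the threshold, and the Ldhb points run the opposite way, at 26.3 and 23.3 under BPTES against 21.7 and 17.7.

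These macrophage calls sat close to the threshold and depended on single libraries. Of 13 alternatives, 10 ended the call of Ldha, 6 that of Pgk1 and 6 that of Pkm. Over these alternatives the log2 fold changes were -0.60 to -0.31 for Pgk1, -0.44 to -0.23 for Ldha and -0.57 to -0.30 for Pkm. Without BPTES library 1 or without BPTES library 2, 0 members passed, and the log2 fold changes of the 3 genes were -0.32 to -0.34 and -0.30 to -0.51. Without DMSO library 1, 4 members passed, the 3 as lower and Ldhb as higher (0.49), and without DMSO library 2, 2 passed as lower. With a mitochondrial limit of 25%, or with clustering at resolution 2, 0 members passed, with DESeq2 1 (Pkm), and with doublets kept 1 (Pgk1). In the largest of the macrophage clusters Pgk1 changed by -0.65, Pkm by -0.60, Pfkp by -0.57 and Ldha by -0.48, all 4 past the threshold (edgeR adjusted p = 0.0486, 0.0369, 0.0356 and 0.0369). In that cluster 5.1% of 12683 genes passed. In the cluster that also carried T cell markers, the same genes were at -0.10, -0.16, -0.06 and -0.14, and 0 members passed (1.28% of 12377 genes did), with the difference between the clusters not tested. The median depth of macrophages was 14832 and 14356 UMIs per cell under BPTES and 17316 and 20165 under DMSO, and its part in these results was not tested.

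The members' promoters were searched for the letters ACGTG (or CACGT on the other strand), the core that hypoxia-inducible factors bind. Among the members called by edgeR with the settings described above, Pgk1 and Hk2 had a match at their only start, and Ldha and Pkm at 1 of their 2. Aldoa, which was not among them, had matches at 2 of 3 starts. The share of all genes with a match at any start was not counted, so the called genes have no background to be set against. The stretches before those 2 Aldoa starts overlap and share 1 site. The starts of Pgk1, Ldha and Hk2 with the most matches were chosen for display after the matches were seen. Shown are the 250 bases before the annotated start (RefSeq, GRCm38.p6), with each match in capitals.
Pgk1, chrX:106186850-106187099, plus strand: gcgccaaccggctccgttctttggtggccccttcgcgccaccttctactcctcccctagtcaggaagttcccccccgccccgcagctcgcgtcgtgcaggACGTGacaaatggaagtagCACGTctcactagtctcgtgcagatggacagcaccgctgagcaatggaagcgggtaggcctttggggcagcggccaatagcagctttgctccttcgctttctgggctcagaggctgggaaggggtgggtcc
Ldha, chr7:46845554-46845803, plus strand: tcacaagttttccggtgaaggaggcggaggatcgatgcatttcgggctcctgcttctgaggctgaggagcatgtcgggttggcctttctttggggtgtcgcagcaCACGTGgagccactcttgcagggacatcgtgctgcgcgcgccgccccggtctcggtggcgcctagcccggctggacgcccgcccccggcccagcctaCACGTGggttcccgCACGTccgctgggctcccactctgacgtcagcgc
Hk2, chr6:82774455-82774704, minus strand: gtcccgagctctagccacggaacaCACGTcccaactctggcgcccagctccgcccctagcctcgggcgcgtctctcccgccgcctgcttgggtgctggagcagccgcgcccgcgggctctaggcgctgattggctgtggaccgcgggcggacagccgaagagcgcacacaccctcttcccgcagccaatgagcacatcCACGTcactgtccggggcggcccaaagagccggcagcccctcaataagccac
Ldha held 5 matches, since CACGTG reads as a match on both strands, and Pgk1 and Hk2 held 2 each. Of the 17 RefSeq starts of the 10 members, 6 held a match, and of 32851 promoters of this length in the mouse 16.6% did. The 6 count the shared Aldoa site at both of its starts. A match is a description of the letters, not of a bound site.

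Of 9 HIF target genes tested in macrophages, 0 passed with edgeR, with 1 at an unadjusted p below 0.05, a median log2 fold change of 0.10 and 0 passing with DESeq2. Pgk1, Ldha and Pkm were not in that list. Of all 13963 genes tested in macrophages with edgeR, 3620 were at an unadjusted p below 0.05 and 5.38% passed. Of the 11 other enzymes of glycolysis tested in macrophages, 2 passed, both lower. Gapdh, the enzyme before Pgk1 in the chain, was at 426, 455, 584 and 596, with a log2 fold change of -0.42 (SE 0.08, edgeR adjusted p = 0.0358). Hk3, the hexokinase of myeloid cells, was at 16.6, 18.0, 28.6 and 31.1, with a log2 fold change of -0.79 (SE 0.10, edgeR adjusted p = 0.0146). Of 10 regulators 1 passed, Myc, a transcription factor that acts on many genes of this pathway, which was higher at 26.6 and 26.9 against 20.5 and 17.3 (log2 fold change 0.50, edgeR adjusted p = 0.0429). Of 15 transport and pyruvate entry genes 2 passed, both higher: the proximal tubule glucose carriers Slc2a2 (4.41, 6.10, 2.48 and 2.17) and Slc5a2 (14.5, 20.1, 6.48 and 6.06). Of 13 alternatives, 8 ended the call of Myc, 6 that of Slc2a2, 5 that of Gapdh, 2 that of Hk3 and 1 that of Slc5a2. The 11 proximal tubule markers, Slc5a2 among them, were all detected in macrophages of every library and summed to 593 and 463 CPM under BPTES against 369 and 290 under DMSO.

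Ldhb was higher under BPTES without overlap in 6 classes and passed the threshold in 0 of them with edgeR, where 19.6 to 27.3% of all genes were higher without overlap. It was lower without overlap in 3, the connecting tubule, innate lymphoid cells and proximal tubule. With doublets kept its log2 fold change was 0.13 in B cells, 0.12 in macrophages, 0.15 in endothelium and -0.064 in neutrophils. The 6 classes were B cells (45.5, 26.9, 20.9 and 16.2), neutrophils (55.5, 39.6, 26.2 and 23.9), monocytes (35.8, 30.2, 27.2 and 23.1), macrophages, endothelium (69.9, 58.2, 52.5 and 56.7) and principal cells (1368, 1505, 1078 and 946). Its log2 fold changes were 0.98, 0.93, 0.38, 0.33, 0.24 and 0.51, and edgeR's adjusted p lay between 0.147 and 0.732. Together with lower Ldha, the log2 ratio of Ldha to Ldhb in B cells was 1.06 and 1.53 under BPTES and 2.66 and 3.15 under DMSO. In macrophages it was 2.24 and 2.38 against 2.79 and 3.13, and in monocytes 2.09 and 2.58 against 2.82 and 3.29. The 6 macrophage markers summed to 1909 and 1582 CPM in BPTES monocytes and to 5772 and 4345 in DMSO monocytes, and their part in the ratio was not tested. An exact two-sided permutation test of 2 against 2 libraries cannot reach the threshold for any of these ratios. Ldhb is abundant in the proximal tubule, and its level in B cells was 4.37 and 3.18% of the proximal tubule level under BPTES and 1.94 and 1.51% under DMSO. The 11 proximal tubule markers had a median of 3.65 and 1.95% of their own proximal tubule level in those B cells under BPTES and of 2.11 and 1.06% under DMSO. In neutrophils the values were 5.20 and 4.56% against 2.23 and 2.50% for Ldhb, and 2.49 and 2.79% against 2.13 and 1.92% for the markers. In macrophages they were 2.59 and 2.76% against 1.96 and 1.68% for Ldhb, and 1.87 and 1.98% against 1.51 and 0.967% for the markers. The part of proximal tubule RNA in the Ldhb levels was not tested.

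In the proximal tubule, the largest class, all 10 members had a negative log2 fold change and 9 were lower under BPTES without overlap, but 0 passed the threshold with edgeR, where 3 reached an unadjusted p below 0.05. With DESeq2 2 did, as did 2535 of 23660 genes, and 0 members passed after adjustment. Of all 15976 genes 0.689% passed with edgeR, 3075 reached an unadjusted p below 0.05, and 28.4% were lower without overlap. The members' median was -0.15 against -0.01 over all genes. The largest difference with more than a few counts was in Pfkp, the platelet-type phosphofructokinase, at 3.10 and 6.17 under BPTES and 8.85 and 17.6 under DMSO. Its log2 fold change was -1.52 (SE 0.57, edgeR adjusted p = 0.301), and the groups did not overlap. Without DMSO library 2 it was -0.95 and passed (edgeR adjusted p = 0.0085), in a fit where 716 of 16553 genes did.

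Pfkp was negative in each of the 8 proximal tubule clusters tested, from -0.99 to -2.16, and passed in 1 of them, the largest cluster, at -1.47 (SE 0.20, edgeR adjusted p = 0.000657), where 2.35% of 11743 genes passed. In the other 7 clusters 0.813, 0.725, 0.686, 0.483, 0.358, 0.00883 and 0.0086% of the genes passed. In that cluster it was at 3.12 and 4.56 CPM under BPTES and 9.57 and 12.9 under DMSO. The lowest DMSO library lay above the highest BPTES library in all 8 clusters. These clusters share the same 4 libraries, so they repeat 1 comparison of 2 against 2 and are not separate results. The 6 macrophage markers were all detected in the proximal tubule sums of every library, at a total of 58.3 and 58.3 CPM under BPTES and 64.4 and 71.1 under DMSO. The proximal tubule level of Pfkp was 7.48% of the macrophage level under BPTES and 19.1% under DMSO. The 6 macrophage markers had a median of 0.120 and 0.194%, with 5 below the shares of Pfkp and Mertk above.

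**Figure D4:**
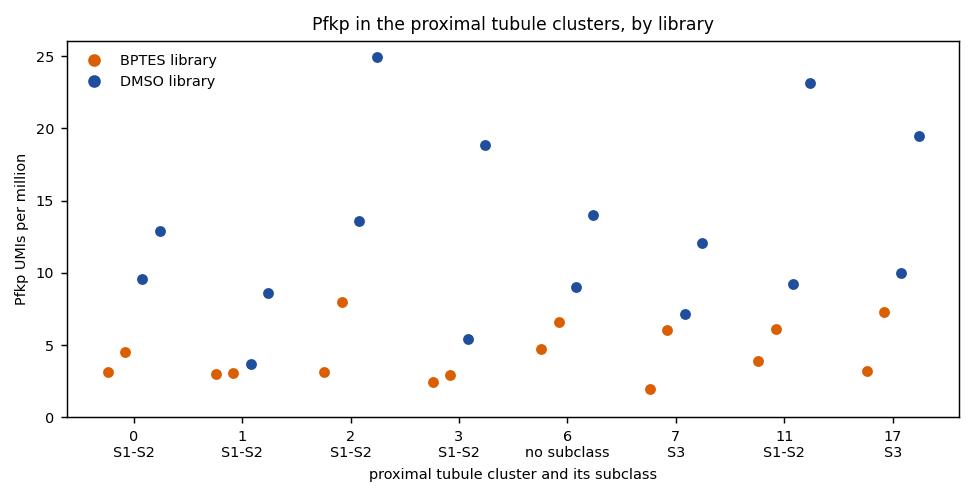
CPM of Pfkp (vertical axis, from 0) in 8 proximal tubule clusters with their subclass, 1 point per library (orange BPTES, blue DMSO). In every cluster the 2 BPTES libraries lie below the 2 DMSO libraries, and DMSO library 2 is the highest. The clusters share these libraries and are not separate results.

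The hexokinase levels of the proximal tubule rest on few UMIs. For Hk2 10 and 7 UMIs were counted after BPTES, against 25 and 23 after DMSO (a log2 fold change of -1.47, SE 0.40, edgeR adjusted p = 0.124). Pkm was at 2.09 and 1.72 against 2.28 and 3.002, from 160 to 309 UMIs per library (-0.47, SE 0.20, adjusted p = 0.248). Hk1 had 51, 37, 50 and 43 UMIs, with normalised levels of 0.408, 0.397, 0.425 and 0.418. Pgk1 (281, 249, 302 and 299.98), Aldoa (439.6, 410.4, 504 and 489.7), Ldha (408, 350.4, 412 and 413), Ldhb (1028, 890.4, 1045 and 1043), Pfkl and Eno1 changed by -0.23 to -0.09. In Ldha and Ldhb BPTES library 2 was the lowest, and BPTES library 1 lay just below the DMSO libraries.

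In the S1-S2 subclass, the convoluted and early straight part, 1 member passed: Hk2, with 8 and 5 UMIs under BPTES against 22 and 18 under DMSO. Its log2 fold change was -1.82 (SE 0.45, edgeR adjusted p = 0.0385), in a fit where 10.1% of 15368 genes passed and 4.35% as lower. The normalised levels were 0.0948 and 0.0640 against 0.302 and 0.271. Such a level was 0.181% of the macrophage level under BPTES and 0.565% under DMSO, where the 6 macrophage markers were at a median of 0.125 and 0.199%. Against monocytes it was 0.149 and 0.554%, with their 7 markers at a median of 0.316 and 0.439%. Against dendritic cells it was 0.132 and 0.495% (markers 0.0851 and 0.144%), and against neutrophils 0.223 and 0.332% (markers 0.0142 and 0.0237%). The part of leukocyte RNA in this level was not tested. The call was lost without any 1 of the 4 libraries (edgeR adjusted p = 0.101 to 0.254), with doublets kept (-1.14, adjusted p = 0.241) and with clustering at resolution 2 (adjusted p = 0.0804). With a mitochondrial limit of 25% Hk2 was too low to be tested, and Pgk1 (-0.35) and Aldoa (-0.40) passed in a fit where 2377 of 15250 genes did. DESeq2 gave no adjusted p for Hk2 and called Aldoa alone (-0.29, adjusted p = 0.0137). In all, 9 of 10 members were lower without overlap in S1-S2, where 31.4% of all genes were. They included Aldoa (343, 357, 417 and 448, -0.31, edgeR adjusted p = 0.0551) and Pgk1 (228, 219, 249.7 and 282, -0.25, adjusted p = 0.0987). In the S1-S2 cluster with the highest Aldoa level, mean levels were 753 CPM for Aldoa and 1607 for Ldhb. The other S1-S2 clusters were at 202 to 442 and 478 to 963. That cluster held 9.87 and 8.55% of proximal tubule UMIs under BPTES and 15.01 and 17.38% under DMSO. The part of this shift in the values of S1-S2 and of the whole proximal tubule was not tested.

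In the S3 subclass, the straight part, 6 of 9 members had a positive log2 fold change and 3 a negative one, with a median of 0.22. With doublets kept, which redid the clusters, the median over 8 members tested was -0.11, and Aldoa (-0.17), Eno1 (-0.063), Ldhb (-0.030) and Ldha (-0.0100) turned to negative values. Ldha was at 641 and 561 under BPTES and 501 and 438 in the DMSO libraries (a log2 fold change of 0.36, SE 0.15, edgeR adjusted p = 0.119). Ldhb was at 1336, 1104, 1028 and 889, Eno1 at 203, 182, 173 and 150.4, and Aldoa at 572, 528, 507 and 441. These 4 were higher without overlap (31% of all genes), Pkm and Pfkp were lower without overlap (27.8%), and 0 of 9 tested passed, where 7.49% of 13381 genes did. Of the 9, 3 were below an unadjusted p of 0.05 with edgeR and 2 with DESeq2, which passed 0 after adjustment. Of all genes, 3645 of 13381 were below it with edgeR and 2458 of 20828 with DESeq2. In S3 the 6 macrophage markers summed to 52.9 and 53.7 CPM under BPTES and to 82.2 and 92.6 under DMSO. Mertk, 1 of the 6, was at 62.1 and 44.4% of its macrophage level in the whole proximal tubule, where the markers' medians were 0.120 and 0.194%. The share of Mertk in the S3 sum was not tested, so that sum is no measure of macrophage RNA alone. The 11 proximal tubule markers summed to 63601 and 70207 against 50810 and 60916. The part of these markers in the members' values was not tested. Without BPTES library 2, Pfkp passed at -2.21 (edgeR adjusted p = 6.17e-10), in a fit where 1045 of 13992 genes did.

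The difference between the subclasses was tested as an interaction added after these values were seen. It passed for Ldha (S3 minus S1-S2, 0.61, SE 0.17, edgeR adjusted p = 0.0102), Ldhb (0.57, SE 0.19, adjusted p = 0.0253), Aldoa (0.55, SE 0.17, adjusted p = 0.0197), Pgk1 (0.51, SE 0.17, adjusted p = 0.027) and Eno1 (0.44, SE 0.16, adjusted p = 0.0358). In the same fit 25.1% of 15127 genes passed. Without BPTES library 1, BPTES library 2 or DMSO library 2, 0 of the members passed, and without DMSO library 1, 5. The interaction was not run with doublets kept, where the S3 values turned. Within single clusters the log2 fold changes of these 5 genes were -0.17 to -0.01 in the larger S3 cluster, -0.03 to 0.21 in the smaller, and -0.19 (Aldoa) to 0.09 (Eno1) over the 5 S1-S2 clusters. Mean levels were 720 CPM for Ldha and 1459 for Ldhb in the larger S3 cluster, and 257 and 533 in the smaller. The clusters took different shares of the class between libraries. The smaller S3 cluster held 6.79 and 3.99% of proximal tubule UMIs in the BPTES libraries and 9.26 and 12.6% under DMSO, and the largest S1-S2 cluster 17.4 and 26.6% against 13.2 and 15.3%. The S1-S2 cluster with the highest Aldoa level held 9.87 and 8.55% against 15.01 and 17.38%. The part of these shares in the interaction was not tested.

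**Figure D5:**
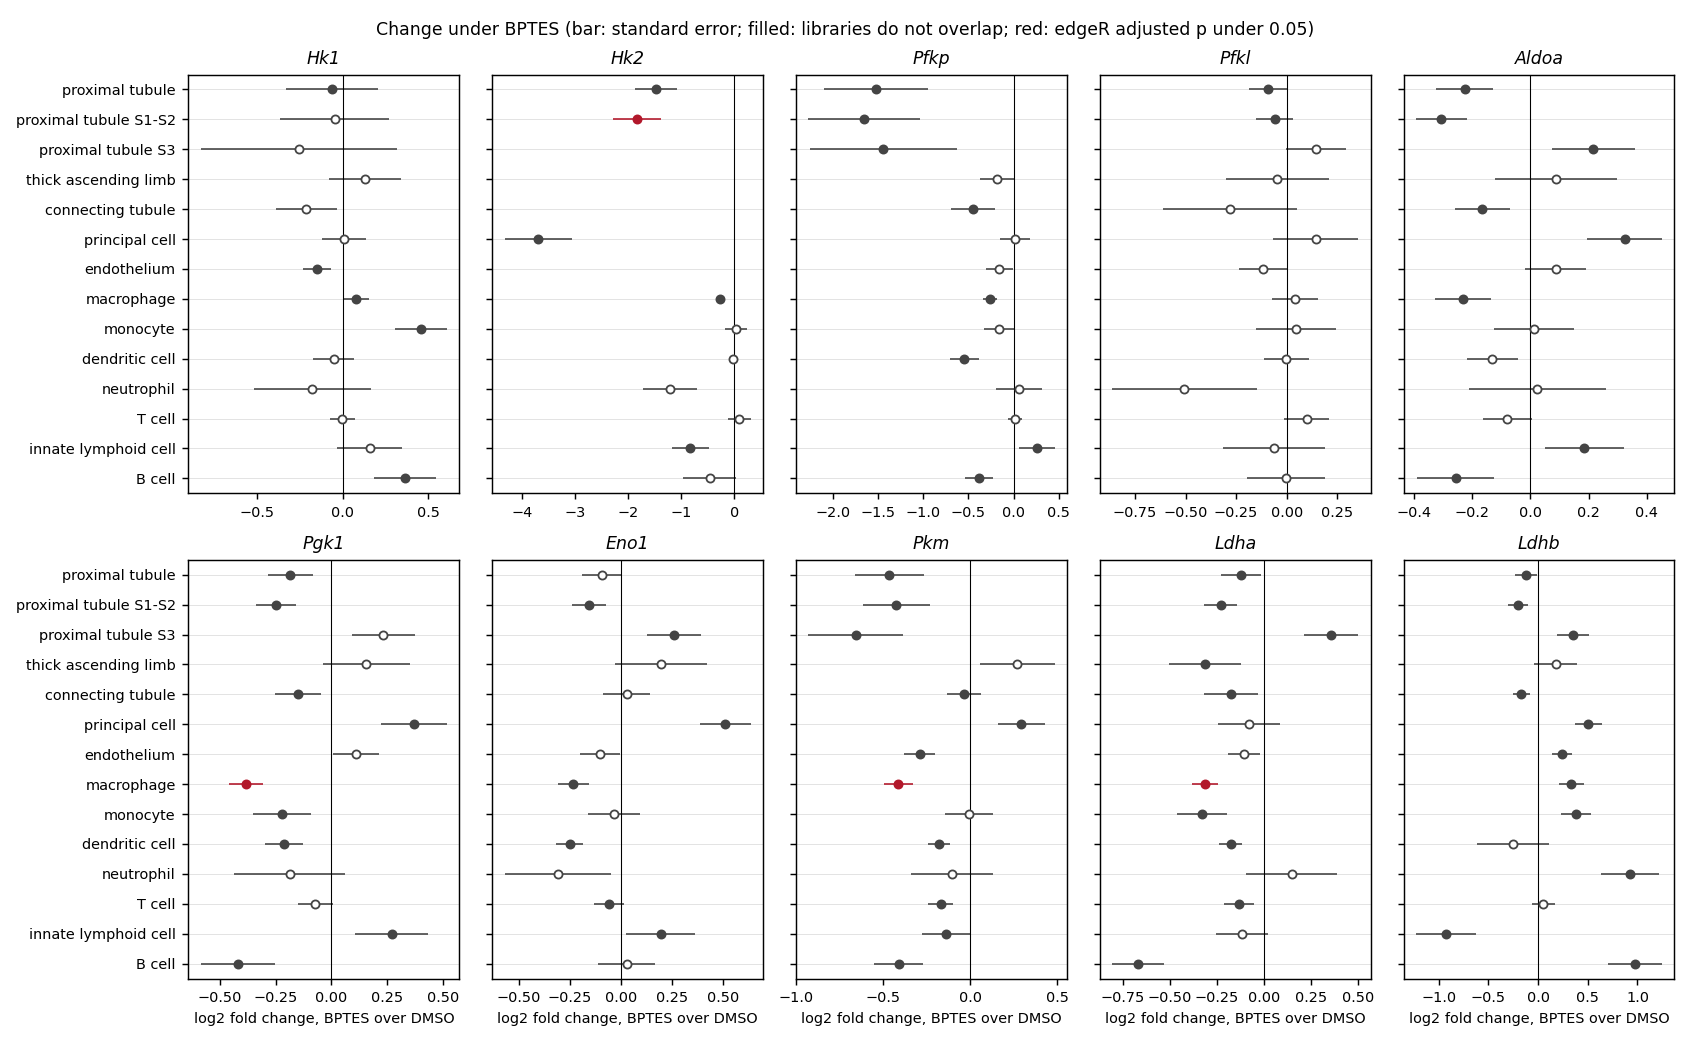
The log2 fold change of BPTES over DMSO with its standard error for each member in 12 classes and 2 proximal tubule subclasses, filled where the libraries do not overlap and red where edgeR's adjusted p was under 0.05. Red points are Pgk1, Ldha and Pkm in macrophages and Hk2 in S1-S2, and Ldha, Ldhb, Aldoa, Pgk1 and Eno1 lie on opposite sides of 0 in S1-S2 and S3.

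In principal cells, the water-reabsorbing cells of the collecting duct, 5 members were higher without overlap and 1 was lower, where 22.1% and 23% of all genes were, and 0 passed with edgeR, where 5 reached an unadjusted p below 0.05, as did 5 with DESeq2, of which 0 passed after adjustment. Of all 11310 genes 0.0265% passed and 1416 reached an unadjusted p below 0.05 with edgeR, and 629 of 18532 reached it with DESeq2. Eno1 was at 225 and 206 under BPTES and 161 and 142 in the DMSO libraries (a log2 fold change of 0.51, SE 0.12, edgeR adjusted p = 0.173). Pgk1 (285, 255, 235 and 183), Aldoa (941, 947, 806 and 702), Pkm (351, 309, 294 and 246) and Ldhb were the other 4. Hk2 was lower, with 2 and 1 UMIs under BPTES against 17 and 23 under DMSO (edgeR adjusted p = 0.0834). The ratio of the summed counts was 0.0708 (95% exact counting interval 0.0140 to 0.222), which covers counting error only. The 6 macrophage markers summed to 26.8 and 15.004 CPM in the BPTES principal cells, where 2 of them were at 0 in library 2, and to 34.3 and 24.8 in the DMSO ones, where all 6 were detected. The 11 proximal tubule markers summed to 435 and 627 CPM in the BPTES principal cells and to 250.3 and 279 in the DMSO ones, higher without overlap, and their part in the members' values was not tested.

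The interaction of principal cells with the proximal tubule, also added after the values were seen, passed for Eno1 (0.67, SE 0.15, edgeR adjusted p = 0.0181), Pgk1 (0.63, SE 0.15, adjusted p = 0.0295) and Pkm (0.82, SE 0.21, adjusted p = 0.046), in a fit where 1.36% of 16707 genes passed. Without DMSO library 2, 0 members passed. The interactions of the proximal tubule with macrophages and with endothelium passed for 0 of 11 and 0 of 10 member identifiers with edgeR, where 2 and 1 were at an unadjusted p under 0.05. In those fits 1.43% of 17448 and 0.229% of 17453 genes passed, and 2681 and 1890 were at an unadjusted p under 0.05.

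In dendritic cells, which present antigen, all 10 members had a negative log2 fold change, 5 were lower without overlap (27.8% of all genes were), and 0 passed with edgeR, where 5 were at an unadjusted p under 0.05. Of 13109 genes 4.7% passed and 3086 were at an unadjusted p under 0.05. Eno1 was at 100.3 and 104 under BPTES and 125 and 118 in the DMSO libraries (a log2 fold change of -0.25, SE 0.06, edgeR adjusted p = 0.0658). Pfkp was at 213, 166, 249.8 and 304 (-0.55, SE 0.16, adjusted p = 0.143), and DESeq2 called it alone (-0.54, adjusted p = 0.00174). It also passed with edgeR without BPTES library 1 (-0.74, adjusted p = 0.0475), and Pgk1 passed without DMSO library 1 (-0.32, adjusted p = 0.0494), in fits where 409 of 14104 and 710 of 13118 genes did. The members' median was -0.18. The 6 macrophage markers summed to 1480 and 1671 CPM in the BPTES dendritic cells and to 2275 and 3067 in the DMSO ones, lower without overlap, and their part in the members' values was not tested. Among the other lists, Eno2, the neuronal enolase, fell from 1.89 and 2.54 to 0.278 and 0.0936 (-3.51, SE 0.57, edgeR adjusted p = 0.0203). It had 3 and 1 UMIs in the BPTES libraries against 37 and 47, was -2.01 with doublets kept and did not pass without BPTES library 2 (-2.96, adjusted p = 0.0778). Mpc1, a subunit of the mitochondrial pyruvate carrier, fell from 170.0 and 159.8 to 135 and 132 (-0.31, SE 0.06, adjusted p = 0.0393). Txnip, which restrains glucose uptake, rose from 122 and 136 to 189 and 182 (0.53, SE 0.07, adjusted p = 0.0131), and Myc from 18.5 and 15.6 to 30.4 and 29.8 (0.82, SE 0.12, adjusted p = 0.0138). Eno2 was 1 of 11 other enzymes of glycolysis tested, Mpc1 1 of 15 transport and pyruvate entry genes, and Txnip and Myc 2 of 10 regulators, where 4.7% of all genes passed. Of 12 alternatives, 3 ended the call of Mpc1, 1 that of Myc and 0 that of Txnip.

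In B cells, 5 members were lower without overlap (22% of all genes) and 2 higher (20.6%), and 0 passed with edgeR, where 5 reached an unadjusted p below 0.05. With DESeq2 3 did, and 0 passed after adjustment. Of 10106 genes 0.0198% passed and 1091 reached an unadjusted p below 0.05 with edgeR, and 469 of 17884 reached it with DESeq2. Ldha was at 94.7 and 77.9 under BPTES and 132 and 144 in the DMSO libraries (a log2 fold change of -0.67, SE 0.14, edgeR adjusted p = 0.208). It passed without BPTES library 1 (-0.82, adjusted p = 0.00268), and Ldhb passed without BPTES library 2 (1.29, adjusted p = 0.00256), in fits where 227 of 10524 and 44 of 10601 genes did. Pgk1, Pkm, Pfkp and Aldoa were the other 4 that were lower. In the B cells the 6 macrophage markers summed to 55.5 and 54.0 CPM under BPTES and to 76.2 and 140 under DMSO. The markers' part in the members' values was not tested.

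The remaining classes gave 0 members past the threshold with edgeR and 0 with DESeq2. At an unadjusted p under 0.05 edgeR found 3 in monocytes, 2 each in endothelium and innate lymphoid cells, 1 each in T cells and neutrophils, and 0 in the connecting tubule and thick ascending limb. Of all genes, 2633 of 12196 were at such a p in monocytes, 1562 of 13695 in endothelium and 895 of 8769 in innate lymphoid cells. In T cells 1882 of 12849 were, in the connecting tubule 459 of 6978 and in the thick ascending limb 714 of 10686. In the connecting tubule 6 of 9 members were lower without overlap (18.6% of all genes), at log2 fold changes from -0.45 for Pfkp to -0.04 for Pkm, and 0.186% of genes passed. In endothelium Ldhb was higher (21.2% of all genes) and 2 of 9 were lower (21.3%), Hk1 and Pkm, the latter at 147, 173, 199.7 and 191 (-0.29, edgeR adjusted p = 0.244), and 0.694% of genes passed. In T cells 3 of 10 were lower (25%), at -0.17 to -0.06, and 0.179% of genes passed. The 6 macrophage markers summed to 32.3 and 32.3 CPM in the BPTES T cells and to 68.1 and 100 in the DMSO ones. Their part was not tested. In innate lymphoid cells 3 were lower and 4 higher (20.9 and 20.4%), and 0.342% of genes passed. Ldhb was among the lower ones. Its level there was 3.01 and 2.62% of the proximal tubule level under BPTES and 5.76 and 3.37% under DMSO. For the 11 proximal tubule markers the medians were 1.38 and 1.35% against 5.34 and 1.37%. The part of proximal tubule RNA in this Ldhb difference was not tested. In monocytes 2 were lower and 2 higher (28.1 and 26.3%), with 1.67% of genes passing. In the thick ascending limb Ldha alone was lower (156, 121, 171 and 174, with 17.7% of all genes lower), and 0.14% of genes passed. In neutrophils Ldhb alone was higher (19.6%), and 0 of 7681 genes passed with edgeR (0%), where 494 reached an unadjusted p below 0.05. With DESeq2 343 did, and 25 passed after adjustment. Leaving out 1 library gave calls in 5 of these classes: Pkm in endothelium (-0.41, without BPTES library 2), Ldhb in innate lymphoid cells (-1.26) and Hk1 in monocytes (0.61, both without DMSO library 2), Eno1 and Pkm in the thick ascending limb (0.56 and 0.59) and Hk2, Eno1 and Ldhb in neutrophils (-1.75, -0.46 and 1.04, all without DMSO library 1). In those fits 255 of 14330 genes passed in endothelium, 254 of 9502 in innate lymphoid cells, 963 of 12715 in monocytes, 814 of 11474 in the thick ascending limb and 2239 of 8531 in neutrophils. In the thick ascending limb the deeper of its 2 clusters held 50.1 and 54.5% of the UMIs under BPTES and 57.2 and 75.2% under DMSO. Within the clusters, over all 4 libraries, the log2 ratios of mean CPM were negative, at -0.09 and -0.22 for Eno1 and -0.04 and -0.05 for Pkm.

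Among the lists around the pathway, the genes below passed in these classes. In S1-S2 the glucose carriers Slc2a2 (403, 449, 298 and 304, 0.50, SE 0.09, edgeR adjusted p = 0.0175) and Slc5a2 (891, 951, 596 and 679.8, 0.53, SE 0.10, adjusted p = 0.0205) rose, which were 2 of 16 transport genes tested, where 10.1% of all genes passed. Each was lost in 2 of 12 alternatives. Of the 10 HIF targets tested there, where 10.1% of all genes passed, 2 did: Ero1l, an oxidase of protein folding, rose (0.27, adjusted p = 0.049) and Egln3, an oxygen sensor, fell (-0.83, adjusted p = 0.0483), both lost in 7 of 12 alternatives. In S3 Pklr fell (8.37, 7.38, 10.97 and 12.2, -0.54, edgeR adjusted p = 0.0424), Pdk3, a brake on pyruvate oxidation, rose (0.42, adjusted p = 0.0429), and Myc fell (-0.77, adjusted p = 0.0234). They were 1 of 11 other enzymes of glycolysis, 1 of 15 transport and pyruvate entry genes and 1 of 10 regulators tested, where 7.49% of all genes passed. Of 12 alternatives, 5 ended the call of Pklr, 7 that of Pdk3 and 3 that of Myc, and with doublets kept 1 gene of all passed in S3. Myc, 1 of 10 regulators tested there, also fell in S1-S2 (-0.97, edgeR adjusted p = 0.0447), a call lost in 5 of 12. In innate lymphoid cells Txnip rose (571, 616, 299.7 and 389.6, 0.79, adjusted p = 0.0425), and in the connecting tubule Ndrg1, a HIF target, fell (330.4, 272, 458 and 494, -0.66, adjusted p = 0.012). They were 1 of 5 regulators and 1 of 6 HIF targets tested, where 0.342 and 0.186% of all genes passed. The call of Txnip was lost in 3 of 12 alternatives and that of Ndrg1 in 2.

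Genes known to rise during tissue dissociation differed between the groups beside these results. Of 11 such genes, 6 fell in endothelium, 6 in S1-S2, 4 in the thick ascending limb and 2 in the whole proximal tubule. Of all genes 0.694, 10.1, 0.14 and 0.689% passed there. Those in endothelium were Egr1 (-1.24), Atf3 (-0.97), Ier2 (-0.73), Junb (-0.63), Btg2 (-0.58) and Fos (-1.12 to -0.88 over 12 alternatives). Alternatives ended the call of Btg2 in 3 of 12 and that of Fos in 0. Each call was lost in 1 to 3 of 12 in S1-S2, 3 to 6 of 14 in the thick ascending limb and 2 to 5 of 13 in the proximal tubule. In S3, 2 fell and 1 rose, and in dendritic cells and monocytes 1 rose each, where 7.49, 4.7 and 1.67% of all genes passed. In macrophages 0 of 11 passed with edgeR, where 5 had an unadjusted p below 0.05, and 3 passed with DESeq2. Of all 13963 genes there 3620 had such a p with edgeR, and with DESeq2 805 of 21673 passed. The summed level of the 11 dissociation genes in macrophages was 5151 and 5511 CPM under BPTES and 4735 and 4742 under DMSO. In the proximal tubule it was 135 and 140 against 182 and 230. Mitochondrial genes took 14.9 and 17.7% of proximal tubule UMIs in the BPTES libraries and 13.2 and 15.1% under DMSO. Their part in the members' differences was not tested.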

How the data were processed

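Single-cell libraries were made with a 10x 3' kit, per the labels' protocols. The matrices deposited by the authors hold raw UMI counts; their headers name Cell Ranger 8.0.1 as the software, with reads placed on mm10 per the submitters' processing notes; the annotation is not given in the sources used here. Barcodes with at least 500 UMIs, 300 genes and at most 50% mitochondrial UMIs were kept, and 3867 doublets were removed by Scrublet score at a rate of 0.4% per 1000 barcodes, since its own threshold marked 433. Cells were clustered (scanpy 1.11.5, Leiden, resolution 1) and clusters named from at least 3 markers detected in 20% of cells. Counts were summed per library and class and tested with edgeR 4.0.16 (TMM, filterByExpr, robust quasi-likelihood, 2 against 2 libraries), which was tested on simulated data. DESeq2 1.42.0, RLE scaling, no filter, other cell filters, another resolution, each library left out and a replicate block were the alternatives. Named in full were the called members and, up to 8 pairs, those with the smallest p without overlap; of other lists, genes past the threshold, up to 5 a class. The members and lists were chosen with earlier results of these data known. Gene positions came from GENCODE M21, which held 30934 of the 31053 identifiers.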

Additional observations from a re-analysis of the deposited data

Results flagged for a closer look

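Differences between classes in the comparison of BPTES with DMSO passed a test of the difference itself for 8 pairs, in interactions added after the values were seen. Within the larger S3 cluster alone, log2 ratios of mean CPM were -0.01 for Ldha, -0.005 for Ldhb, -0.17 for Aldoa, -0.14 for Pgk1 and -0.05 for Eno1. In the smaller S3 cluster they were 0.18, 0.12, 0.09, 0.05 and -0.06, and the part of cluster shares was not tested. Between the proximal tubule subclasses, S3 minus S1-S2, the log2 differences were 0.61 for Ldha, 0.57 for Ldhb, 0.55 for Aldoa, 0.51 for Pgk1 and 0.44 for Eno1, in a fit where 25.1% of all genes passed. Without BPTES library 1, BPTES library 2 or DMSO library 2, 0 members passed, and with doublets kept, where this test was not run, the members' median in S3 was -0.11. Between principal cells and the proximal tubule they were 0.82 for Pkm, 0.67 for Eno1 and 0.63 for Pgk1, where 1.36% of all genes passed, and without DMSO library 2, 0 members did.

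For 7 members, some classes were higher under BPTES without overlap of the libraries and others lower, a difference that was not tested. In these classes and directions, 18.6 to 30.3% of all genes did not overlap. Ldhb was higher in 6 classes and lower in 3 (connecting tubule, innate lymphoid cells and proximal tubule). Hk1 was higher in 3 and lower in 2. Aldoa was higher in 2 and lower in 4, Eno1 higher in 2 and lower in 3, and Pgk1 higher in 2 and lower in 6. Pkm was higher in 1 class, principal cells, and lower in 8, and Pfkp higher in 1, innate lymphoid cells, and lower in 5. Groups of 2 libraries are too small to single out a library that stands apart.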

How the results depend on the processing

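Of 1447 values for 118 pairs of a gene and a class, 1250 kept their direction and their side of the threshold, 148 kept their direction but no longer passed, 41 newly passed and 8 reversed, none of them called. With doublets kept these were Aldoa (-0.17), Eno1 (-0.063), Ldhb (-0.030) and Ldha (-0.0100) in S3, Ldhb in neutrophils (-0.064) and Hk1 in the proximal tubule (0.18). Pkm in the connecting tubule was 0.11 with the mitochondrial limit of 25%, and Hk1 in macrophages -0.0092 without the T cell marker cluster. Counts of calls moved more, and the cause was not tested. The genes past the threshold numbered 2 in B cells, 13 in the connecting tubule, 616 in dendritic cells, 95 in endothelium, 30 in innate lymphoid cells, 751 in macrophages, 204 in monocytes, 0 in neutrophils, 3 in principal cells, 110 in the proximal tubule, 1559 in S1-S2, 1002 in S3, 23 in T cells and 15 in the thick ascending limb. Only counts that moved by more than 1.5 times are given next.

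With DESeq2 the genes were 16 in B cells, 6 in the connecting tubule, 145 in endothelium, 492 in monocytes, 25 in neutrophils, 66 in principal cells, 773 in the proximal tubule, 591 in S3 and 115 in T cells, and the members 1 in dendritic cells and 1 in macrophages. With no low-count filter the genes were 265 in B cells, 43 in the connecting tubule, 1208 in dendritic cells, 656 in endothelium, 238 in innate lymphoid cells, 1740 in macrophages, 1642 in monocytes, 190 in neutrophils, 616 in principal cells, 1883 in the proximal tubule, 495 in T cells and 209 in the thick ascending limb, and the members 2 in B cells, 1 in dendritic cells, 1 in endothelium, 1 in innate lymphoid cells, 5 in macrophages, 1 in monocytes, 1 in neutrophils, 3 in principal cells, 2 in the proximal tubule and 2 in S1-S2, while the interactions of the proximal tubule with macrophages and with endothelium gave 1 each. With a mitochondrial limit of 25% the genes were 7 in the connecting tubule, 280 in macrophages, 1190 in monocytes, 13 in principal cells, 2377 in S1-S2, 41 in T cells and 9 in the thick ascending limb, and the members 0 in macrophages and 2 in S1-S2. With doublets kept the genes were 12 in B cells, 3 in the connecting tubule, 6 in innate lymphoid cells, 700 in monocytes, 9 in neutrophils, 7 in principal cells, 31 in the proximal tubule, 37 in S1-S2 and 1 in S3, and the members 1 in macrophages and 0 in S1-S2. At resolution 2 the genes were 194 in dendritic cells, 448 in macrophages, 692 in monocytes, 1027 in S1-S2, 37 in T cells and 30 in the thick ascending limb, and the members 0 in macrophages and 0 in S1-S2. With its shallow cluster only, the thick ascending limb gave 26.

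Leaving out each library in turn gave 6 to 227 in B cells, 27 to 59 in the connecting tubule, 169 to 710 in dendritic cells, 172 to 310 in endothelium, 12 to 254 in innate lymphoid cells, 35 to 1513 in macrophages, 0 to 963 in monocytes, 11 to 2239 in neutrophils, 1 to 76 in principal cells, 11 to 1402 in the proximal tubule, 367 to 1274 in S1-S2, 470 to 1389 in S3, 4 to 475 in T cells and 1 to 814 in the thick ascending limb genes. Members numbered 0 to 1 in B cells, 0 to 1 in dendritic cells, 0 to 1 in endothelium, 0 to 1 in innate lymphoid cells, 0 to 4 in macrophages, 0 to 1 in monocytes, 0 to 3 in neutrophils, 0 to 1 in the proximal tubule, 0 to 0 in S1-S2, 0 to 1 in S3 and 0 to 2 in the thick ascending limb. Member interactions numbered 0 to 1 for the proximal tubule against endothelium, 0 to 5 for S3 against S1-S2 and 0 to 4 for principal cells against the proximal tubule. A lone library was assumed to vary like the other group.

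The labels do not say that the sample number marks a shared batch, and with 2 pairs the samples share only a number. Deviations of same-numbered libraries correlated at -0.09 to 0.54 over 14 classes. With the replicate block the genes were 7 in B cells, 58 in innate lymphoid cells, 110 in macrophages, 6 in neutrophils, 10 in principal cells, 2160 in the proximal tubule, 3922 in S1-S2, 3968 in S3, 496 in T cells and 295 in the thick ascending limb, and the members 0 in macrophages, 2 in the proximal tubule, 5 in S1-S2 and 6 in S3.

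The settings with the Havcr1 cluster added, without mitochondrial genes, without the T cell marker cluster and by single cluster were chosen after seeing the data. Leaving out injured proximal tubule clusters gave no value, since none was named. Low levels, such as Hk1 and Hk2 in the proximal tubule, rest on few UMIs, and 2 libraries a group limit every test.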
